A study of Homo sapiens with 27 samples.

Results

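PTF1A, FOXN4, ONECUT1, ONECUT2, ONECUT3, PROX1, LHX1 and BHLHE22 are 8 transcription factor genes that are known for setting or keeping the fates of horizontal and amacrine cells in the retina. They were chosen by name and not by a cutoff on measured values, though earlier results of these data were known. Each had a row of its own among the 44852 genes of the count table. They were followed in 27 bulk RNA-seq libraries of H1 cells, a line of human embryonic stem cells, which were grown on coatings of recombinant laminin, a basement membrane protein, and driven toward photoreceptor progenitors. The study asked how the laminin isoform in the coating bears on this differentiation. There were 9 groups of 3 libraries each, since cells were taken on days 2, 22 and 32 from coatings named here by their leading isoform as LN523, LN323 and LN521. Per the labels, the LN523 coating held that isoform together with LN323, the LN521 coating held LN521 together with LN323, and the LN323 coating held it alone, whereas the methods describe LN521 in all 3. The day 2 cells were labelled as undifferentiated H1 cells, and those of days 22 and 32 as photoreceptor progenitors derived from them. All 3 coatings went through the same media: a neural induction medium with CKI-7 and SB431542 from day 2, and a photoreceptor differentiation medium with DAPT (which blocks Notch signalling through gamma-secretase), retinoic acid, BDNF and CNTF from day 9. No cells were sorted, so each library mixes all the cell types of a culture. The labels do not say that replicates were separate cultures, and p-values then measure only the spread between these libraries, which may be technical.

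Horizontal and amacrine cells are the interneurons that shape signals laterally in the outer and inner plexiform layers of the retina. In the developing retina FOXN4 acts in progenitors and switches on PTF1A, which directs cells to horizontal and amacrine fates and away from the ganglion cell fate. The ONECUT factors, PROX1 and LHX1 then act in horizontal cells, and BHLHE22 acts in amacrine cells and some bipolar cells. None of the 8 belongs to these cells alone. ONECUT genes are also used by ganglion cells, early cones and spinal motor neurons, FOXN4 and PTF1A by spinal cord progenitors, PTF1A by the pancreas, PROX1 by lens, liver and lymphatic endothelium, and LHX1 by the kidney. In bulk libraries, fewer cells of a type and less RNA per cell cannot be told apart.

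Promoters are shown for 3 of the genes, FOXN4, which rose on every coating, and ONECUT1 and ONECUT2, which moved together among libraries. These traits do not set the 3 apart. PROX1 and BHLHE22 also rose on every coating, and ONECUT3 moved with the other ONECUT genes. Each promoter shown is the 250 bases before the gene's start on its own strand, from RefSeq on GRCh38.p14. The RefSeq start of ONECUT1 lies inside the span that GENCODE gives the gene, and so does its window. Capitals mark CANNTG, the E-box that basic helix-loop-helix factors such as PTF1A and BHLHE22 recognise as a class. FOXN4 lies at chr12:109309285-109309534 (minus strand), ONECUT1 at chr15:52790337-52790586 (minus strand) and ONECUT2 at chr18:57435124-57435373 (plus strand).
FOXN4: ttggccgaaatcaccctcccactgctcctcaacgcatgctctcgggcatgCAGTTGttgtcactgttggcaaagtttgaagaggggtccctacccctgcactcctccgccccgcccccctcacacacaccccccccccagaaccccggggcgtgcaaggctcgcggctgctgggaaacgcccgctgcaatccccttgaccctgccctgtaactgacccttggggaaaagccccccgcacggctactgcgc
ONECUT1: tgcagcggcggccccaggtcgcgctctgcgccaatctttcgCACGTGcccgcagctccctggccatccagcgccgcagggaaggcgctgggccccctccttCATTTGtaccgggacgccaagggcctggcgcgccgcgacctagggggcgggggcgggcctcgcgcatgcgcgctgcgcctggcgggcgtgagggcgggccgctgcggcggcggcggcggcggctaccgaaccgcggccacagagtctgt
ONECUT2: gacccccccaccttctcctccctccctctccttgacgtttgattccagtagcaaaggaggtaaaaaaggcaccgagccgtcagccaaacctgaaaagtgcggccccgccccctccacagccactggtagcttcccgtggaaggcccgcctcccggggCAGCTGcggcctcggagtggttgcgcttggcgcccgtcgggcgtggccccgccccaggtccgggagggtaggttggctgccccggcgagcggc
No exon of GENCODE 44 lay in these windows. The E-box was found 1 time before FOXN4, starting 200 bases upstream, 2 times before ONECUT1, starting 209 and 149 bases upstream, and 1 time before ONECUT2, starting 93 bases upstream. Such a match is common, since 61.8% of 35116 promoters of the same length held at least 1. Searched on both strands, ATCAAT and ATCGAT, which are forms of the ONECUT site, and TAATCC, the site of the photoreceptor factors OTX2 and CRX, had 0 matches in the 3 windows, and 5.58%, 0.655% and 5.62% of all promoters held them. With 0 matches, none overlapped an E-box, and ATCGAT reads the same on both strands. PTF1A, ONECUT3, PROX1, LHX1 and BHLHE22 are named only.

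On GRCh38, GENCODE 44 places FOXN4 on chromosome 12 from 109277978 to 109309284 on the minus strand, and PTF1A on chromosome 10 from 23192312 to 23194245 on the plus strand. ONECUT1 lies on chromosome 15 from 52755053 to 52791078 (minus), ONECUT2 on chromosome 18 from 57435374 to 57491298 (plus) and ONECUT3 on chromosome 19 from 1753506 to 1780988 (plus). PROX1 lies on chromosome 1 from 213983181 to 214041510, LHX1 on chromosome 17 from 36936785 to 36944612 and BHLHE22 on chromosome 8 from 64580365 to 64583627, all on the plus strand. PROX1, LHX1 and BHLHE22 share 1.83%, 7.47% and 6.25% of their exonic length with a long non-coding RNA on the opposite strand. The library kit keeps strand but the setting used in counting is not given in the sources used here, so reads of these overlaps are uncertain. Apart from those overlaps, no transcript of the 8 genes matched another gene at 95% identity over 150 bases or more.

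Total counts ran from 25620624 to 47340990 per library, with a median of 39862487. Summed over 8 pluripotency markers, day 2 libraries held 8743 to 14881 CPM (counts scaled to the library total, with TMM factors) and later libraries 49.6 to 644 CPM, so day 2 stood apart. Day 22 lay above day 32 on LN323 (106 to 128 against 50.8 to 97.2 CPM) and on LN521 (169 to 644 against 69.4 to 127 CPM). On LN523 days 22 and 32 overlapped (99.3 to 233 against 49.6 to 103 CPM). The sample titles number each day 2 lower than the extraction day used here. LN521 replicate 1 stood apart at days 22 and 32. Its 15 ganglion cell markers summed to 783 and 868 CPM, against 61.2 to 237 CPM in the other 4 LN521 libraries of those days. Calls of the 8 genes that rest on this library are given with and without it. Calls of genes from the marker lists are given with it only. The replicate number equals the sequencing lane, which was in every fit as a replicate block. Changes are log2 fold changes fitted by edgeR, with p from its quasi-likelihood test adjusted by Benjamini-Hochberg across every gene tested and called when the adjusted p is under 0.05, and ± after a log2 fold change is its standard error.

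Between days 2 and 22, FOXN4, PROX1 and BHLHE22 rose on all 3 coatings. By edgeR's quasi-likelihood test 3 of the 8 genes rose on LN523, where 11.5% of all genes tested rose, 3 on LN323 (11.8% of all genes) and 4 on LN521 (10.8% of all genes), the 4th being ONECUT3. Between days 22 and 32, ONECUT1, ONECUT2 and BHLHE22 rose on LN523, which is 3 of 8 where 0.343% of all genes rose. On LN521 only BHLHE22 of the 8 rose (0.196% of all genes), and on LN323 none did (0.0357% of all genes). There 3 of the 8, and 1280 of all 44852 genes, had an unadjusted p under 0.05. DESeq2 and limma also called 0 of the 8 on LN323, beside 0.0223% of all genes in DESeq2 and 0.00669% and 0.00223% in limma. The members past the threshold were all higher on the later day. With only the groups compared in the fit, 5 of the 8 were called on LN523 between days 22 and 32 (1.34% of all genes), 2 on LN323 (0.962%) and 2 on LN521 (1.01%). The median log2 fold change over the 8 from day 2 to day 22 was 1.89 on LN523, 2.85 on LN323 and 3.10 on LN521, beside 0.02, 0.02 and -0.02 over all genes. From day 22 to day 32 it was 1.79, 0.66 and 0.49, beside 0.00 over all genes on each coating. Without LN521 replicate 1 at days 22 and 32 the medians over the 8 on LN521 were 1.38 and 1.05. The 2 changes on a coating share its day 22 libraries.

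**Figure D1:**
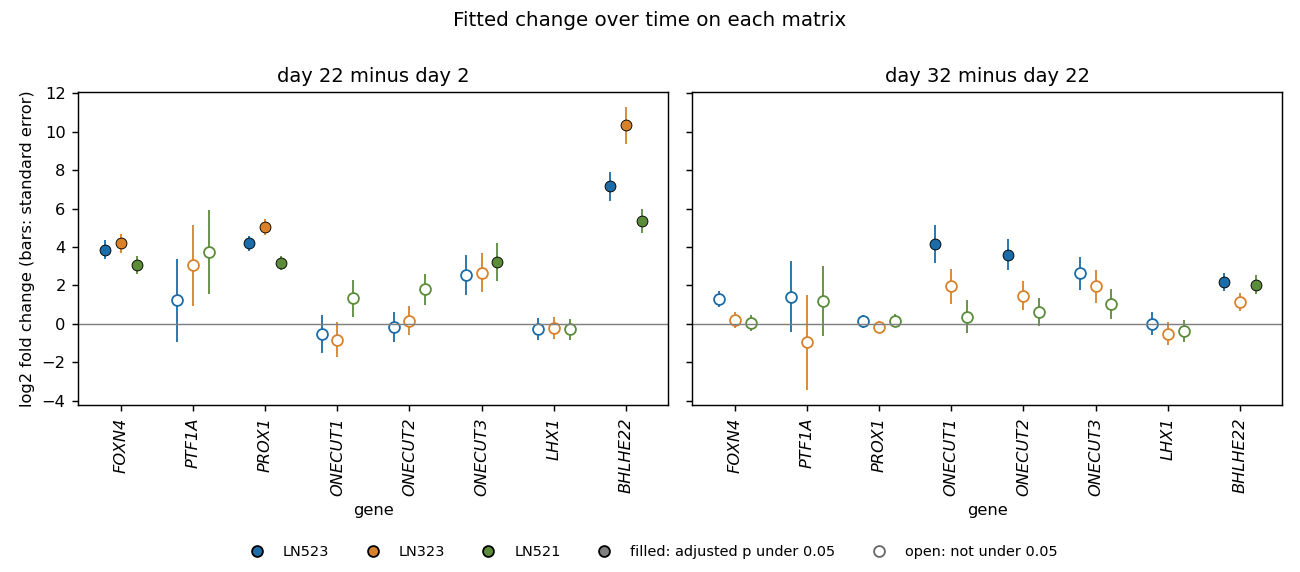
Fitted log2 fold change with its standard error (y axis) of the 8 genes (x axis) on LN523, LN323 and LN521 from day 2 to day 22 (left) and from day 22 to day 32 (right); filled points are past an adjusted p of 0.05 in edgeR. FOXN4, PROX1 and BHLHE22 are filled on every coating on the left, ONECUT1, ONECUT2 and BHLHE22 on LN523 on the right, and PTF1A, with at most 18 counts in a library, has the widest bars.

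FOXN4, the forkhead factor of early retinal progenitors, was near 1 CPM at day 2 and rose more than 8-fold on each coating by day 22. On LN523 it measured 0.573, 0.585 and 1.08 CPM in replicates 1 to 3 at day 2, then 10.9, 4.50 and 19.0 CPM at day 22 and 27.9, 15.0 and 38.4 CPM at day 32. On LN323 it measured 0.241, 0.957 and 0.243 CPM, then 5.48, 8.83 and 15.8 CPM, then 8.50, 7.56 and 19.3 CPM. On LN521 it measured 1.56, 1.23 and 1.26 CPM, then 15.5, 7.63 and 11.4 CPM, then 14.9, 6.63 and 15.5 CPM. Every day 22 library lay above every day 2 library of its coating, as for 15.3% of all genes on LN523, 16.0% on LN323 and 15.8% on LN521. The ranges of days 22 and 32 overlapped on each coating. The rise from day 2 to day 22 was 3.86 ± 0.48 on LN523 (edgeR adjusted p = 4.45e-09), 4.18 ± 0.49 on LN323 (adjusted p = 9.94e-10) and 3.06 ± 0.45 on LN521 (adjusted p = 3.68e-07), and it was called under every alternative and with any 1 library left out. The value on LN523 between days 22 and 32 was 1.29 ± 0.41, higher in 3 of 3 lanes but not past the threshold (edgeR adjusted p = 0.311). LN523 at day 32 was the highest of the 9 groups, at 27.1 ± 11.7 CPM (SD, n = 3) and 30.9 TPM, ahead of LN521 at day 32 with 14.5 TPM and LN323 at day 32 with 13.8 TPM. In the order of mean TPM the 6 groups of days 22 and 32 each overlapped the next, and only LN521 at day 2 stood apart from its neighbours on both sides, below all later groups and above LN523 and LN323 at day 2.

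PTF1A, the factor that commits cells to horizontal and amacrine fates, was hardly detected. Its raw counts at day 22 were 2, 0 and 4 on LN523, 6, 0 and 18 on LN323 and 2, 0 and 4 on LN521. At day 32 they were 6, 4 and 0 on LN523, 6, 2 and 0 on LN323 and 6, 2 and 2 on LN521, and at day 2 the 9 libraries held 4 counts in all. No group stood apart from its neighbour in the order of levels, and the highest, LN323 at day 22, had a mean of 0.559 TPM, owing to replicate 3 with 0.422 CPM. From day 2 to day 22 the ratio of summed counts, scaled to library totals, was 2.42 on LN523 (95% exact counting interval 0.432 to 24.5) and 11.8 on LN323 (2.93 to 103), and on LN521 at least 1.91-fold against 3 counts over the group. These intervals and the floor cover counting error only. No change in PTF1A was detectable at this depth, with edgeR adjusted p values of 0.30 to 1 in the 6 comparisons over time.

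LHX1, a LIM homeobox factor that positions horizontal cells, stayed low and did not pass the test in any comparison. It ran from 0.431 to 3.29 CPM over the 27 libraries. On LN523 the group means were 1.45, 1.15 and 1.26 CPM at days 2, 22 and 32, on LN323 1.05, 0.975 and 0.662 CPM, and on LN521 2.11, 1.71 and 1.47 CPM. All neighbours in the order of its 9 group levels overlapped. The log2 fold changes over time lay between -0.52 and 0.01, with standard errors of 0.57 to 0.60.

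PROX1, a homeobox factor of horizontal cells and of some amacrine cells, was at 0.486 to 2.51 CPM in all day 2 libraries and reached its later level by day 22. On LN523 it measured 1.48, 0.924 and 2.51 CPM at day 2, 24.0, 25.7 and 37.1 CPM at day 22 and 38.9, 16.6 and 43.3 CPM at day 32. On LN323 it measured 1.30, 1.09 and 0.486 CPM, then 43.2, 26.6 and 28.6 CPM, then 44.1, 17.2 and 28.7 CPM. On LN521 it measured 1.95, 2.14 and 2.00 CPM, then 14.9, 14.9 and 26.1 CPM, then 13.4, 19.3 and 28.9 CPM. All 18 later libraries lay above all 9 day 2 libraries. Within a coating, day 22 lay above day 2 without overlap for 15.3%, 16.0% and 15.8% of all genes on LN523, LN323 and LN521. Days 22 and 32 of PROX1 overlapped on each coating. The rise to day 22 was 4.20 ± 0.38 on LN523 (edgeR adjusted p = 7.23e-13), 5.03 ± 0.40 on LN323 (adjusted p = 6.62e-15) and 3.15 ± 0.37 on LN521 (adjusted p = 9.88e-10), each called under every alternative. Between days 22 and 32 the log2 fold changes were 0.13 ± 0.33, -0.16 ± 0.33 and 0.16 ± 0.33, none past the threshold. The 6 later groups, with means of 8.57 to 14.9 TPM, each overlapped the next in the order of levels.

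BHLHE22, a basic helix-loop-helix factor of amacrine and bipolar cells, was at or near 0 at day 2 and rose on every coating by day 22. On LN523 it measured 0.052, 0 and 0 CPM at day 2, 3.19, 3.35 and 3.57 CPM at day 22 and 17.8, 13.2 and 15.0 CPM at day 32. On LN323 it was at 0 in all 3 day 2 libraries, then at 2.25, 5.21 and 5.04 CPM, then at 6.46, 11.4 and 9.36 CPM. On LN521 it measured 0.056, 0.046 and 0.105 CPM, then 2.25, 2.25 and 4.53 CPM, then 21.2, 2.67 and 13.8 CPM. Day 32 lay above day 22 without overlap on LN523 and LN323, as for 3.38% and 3.3% of all genes. On LN521 the days overlapped through replicate 2. From day 2 to day 22 BHLHE22 was at least 165-fold higher on LN323, against 3 counts over the group, and its ratio was 163 on LN523 (95% exact counting interval 44.7 to 1348). The fitted rise on LN521, where all day 2 libraries held counts, was 5.36 ± 0.64 (edgeR adjusted p = 2.63e-09), and all 3 coatings were called under every alternative and leave-out. From day 22 to day 32 it rose by 2.18 ± 0.48 on LN523 (edgeR adjusted p = 0.0165), a call that was lost under the filterByExpr filter (0.177), in limma (0.164 and 0.21) and in 3 of 6 leave-outs (adjusted p up to 0.173). On LN521 the rise of 2.04 ± 0.49 (edgeR adjusted p = 0.0471) was lost without the replicate block (0.0596) and fell to 1.24 (adjusted p = 0.576) without day 32 replicate 1. On LN323 the value was 1.13 ± 0.47 (edgeR adjusted p = 1), higher in every library.

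**Figure D2:**
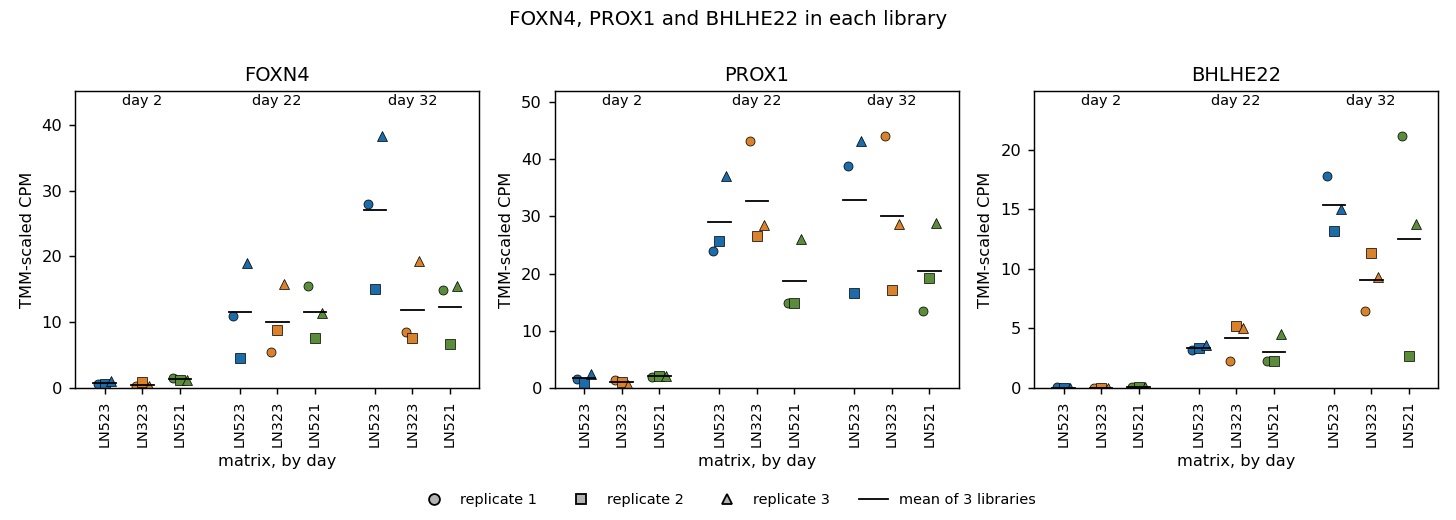
TMM-scaled CPM (y axis, from 0) of FOXN4, PROX1 and BHLHE22 in each library by day and coating (x axis), with marker shapes for replicates and lines at the mean of 3. All 3 genes are near 0 at day 2, PROX1 is at its later level by day 22, BHLHE22 is higher again at day 32 on LN523 and LN323, and FOXN4 is highest in LN523 replicate 3 at day 32, with 38.4 CPM.

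The ONECUT genes, which act together to keep horizontal cells, were alike in that high levels came at day 32 and in LN521 replicate 1. ONECUT2 measured 3.91, 4.00 and 3.32 CPM on LN523 at day 2, 0.370, 7.71 and 2.17 CPM at day 22 and 48.5, 43.1 and 32.1 CPM at day 32. On LN323 it measured 5.05, 4.98 and 4.62 CPM, then 0.685, 13.0 and 3.37 CPM, then 10.2, 20.3 and 13.8 CPM. On LN521 it measured 6.35, 5.94 and 3.79 CPM, then 65.9, 4.22 and 0.384 CPM, then 75.9, 8.57 and 11.5 CPM. LN523 at day 32 therefore lay above all LN323 libraries, while LN521 spanned the whole range because replicate 1 was far above replicates 2 and 3. ONECUT2 rose from day 22 to day 32 on LN523 by 3.60 ± 0.82 (edgeR adjusted p = 0.0219). On LN323 the value was 1.45 ± 0.76 (edgeR adjusted p = 1). On LN521 it was 0.60 ± 0.74 (edgeR adjusted p = 0.988), and without replicate 1 of both days, an alternative chosen after seeing the data, it was 2.62 ± 0.59 (adjusted p = 0.0197, beside 0.241% of all genes called). Without those libraries ONECUT2 fell on LN521 from day 2 to day 22, by -1.75 ± 0.56 (edgeR adjusted p = 0.0151, beside 18.8% of all genes called).

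ONECUT1, the member also known as HNF6, measured 0.208, 0.370 and 0.849 CPM on LN523 at day 2, 0.463, 0.856 and 0 CPM at day 22 and 12.1, 9.88 and 2.37 CPM at day 32. On LN323 it measured 1.47, 1.20 and 0.547 CPM, then 0, 0.956 and 0.469 CPM, then 1.73, 2.25 and 2.00 CPM. On LN521 it measured 1.39, 1.11 and 1.47 CPM, then 15.6, 1.09 and 0 CPM, then 14.9, 2.35 and 1.45 CPM. Day 32 lay above day 22 without overlap on LN523 and LN323, as for 3.38% and 3.3% of all genes. On LN521 replicate 1 was high on both days. The rise on LN523 was 4.15 ± 0.98 (edgeR adjusted p = 0.033), beside 1.96 ± 0.92 on LN323 (adjusted p = 1) and 0.37 ± 0.85 on LN521 (adjusted p = 1), where without replicate 1 of both days it was 2.15 ± 0.86 (adjusted p = 0.636).

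ONECUT3 was the lowest of the 3 in TPM. It measured 0.156, 0.062 and 0.077 CPM on LN523 at day 2, 0.093, 0.951 and 0.457 CPM at day 22 and 2.43, 4.34 and 2.81 CPM at day 32. On LN323 it measured 0.144, 0.055 and 0.061 CPM, then 0.304, 1.23 and 0.141 CPM, then 0.951, 2.68 and 1.83 CPM. On LN521 it measured 0.167, 0.325 and 0.211 CPM, then 9.58, 0.568 and 0.055 CPM, then 16.1, 1.17 and 1.51 CPM. Its call from day 2 to day 22 on LN521, 3.23 ± 0.98 (edgeR adjusted p = 0.0121), came with replicate 1, since without that day 22 library the value was 0.24 (adjusted p = 1). The day 22 and day 32 libraries on LN523 did not overlap, with day 32 higher, as for 3.38% of all genes. The value of 2.63 ± 0.87 did not pass the threshold (edgeR adjusted p = 0.371).

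**Figure D3:**
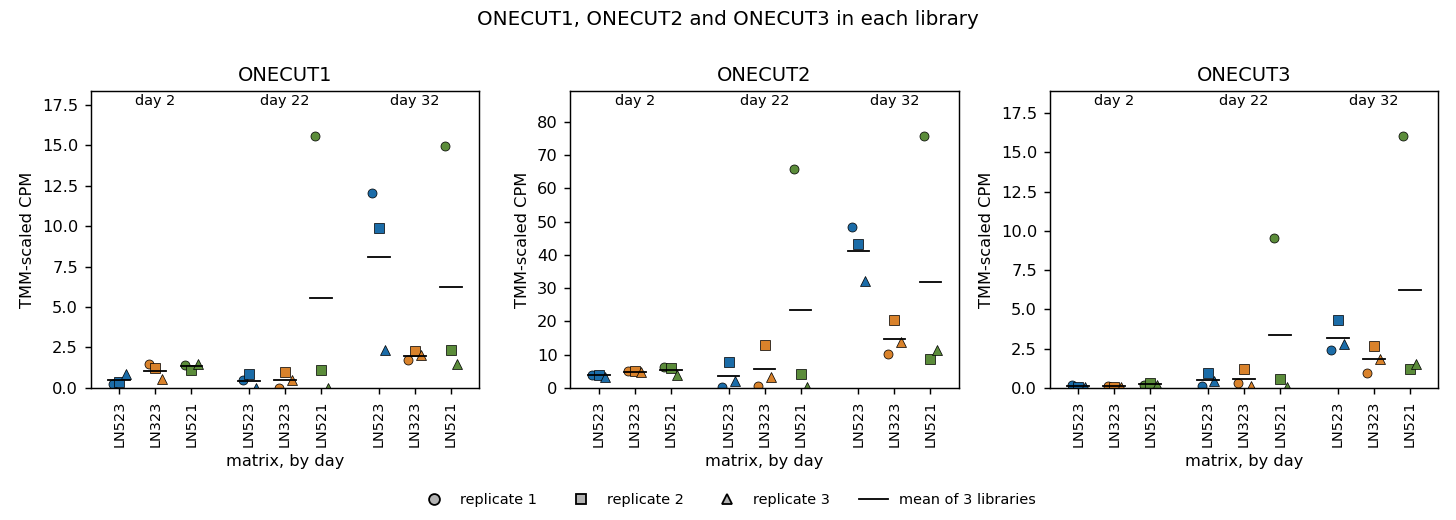
TMM-scaled CPM (y axis, from 0) of ONECUT1, ONECUT2 and ONECUT3 in each library by day and coating (x axis), with marker shapes for replicates and lines at the mean of 3. On LN521 the circles of replicate 1 lie far above the other libraries at days 22 and 32 (ONECUT2 65.9 and 75.9 CPM). On LN523 all 3 libraries of day 32 lie above those of day 22 for each gene, as for 3.38% of all genes.

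The calls of ONECUT1 and ONECUT2 on LN523 hung on the processing. The adjusted p of ONECUT1 was 0.0625 without the replicate block, 0.0512 with RLE size factors, 0.454 with the filterByExpr filter, 0.234 in DESeq2 and 0.335 and 0.389 in limma on log2(TPM + 1) and log2(TPM + 0.1). That of ONECUT2 was 0.0385, 0.0406, 0.483, 0.155, 0.312 and 0.345 in the same order. Of all genes, 0.308% and 0.332% were called without the block and with RLE, and 0.0% with the filterByExpr filter. DESeq2 called 0.412% and limma 0.0624% and 0.00669%. With only the 6 LN523 libraries of the 2 days in the fit, where 1.34% of all genes were called, the adjusted p was 1.49e-12 for ONECUT1 and 1.63e-21 for ONECUT2. With 1 library left out, ONECUT1 was called in 2 of 6 fits and ONECUT2 in 3 of 6, with adjusted p values up to 0.33 and 0.271.

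In the order of mean TPM, ONECUT1 was highest in LN523 at day 32 (8.32 TPM), then in LN521 at day 32 (6.91 TPM) and day 22 (6.09 TPM). ONECUT2 had the same first 3 groups, at 10.0, 8.37 and 6.10 TPM, and ONECUT3 was highest in LN521 at day 32 (3.21 TPM) and day 22 (1.72 TPM) before LN523 at day 32 (1.52 TPM). All these neighbours overlapped. Compared per length in LN523 cells at day 32, the highest means were those of FOXN4 (30.9 TPM), BHLHE22 (18.6 TPM) and PROX1 (14.6 TPM). ONECUT2 and ONECUT1 followed, and the 3 lowest were ONECUT3 at 1.52 TPM, LHX1 at 1.02 TPM and PTF1A at 0.203 TPM. The libraries of PROX1 (7.35 to 19.2 TPM) overlapped those of ONECUT2 (7.84 to 11.8 TPM) and ONECUT1 (2.44 to 12.3 TPM).

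Between coatings within a day, 1 call among the 8 genes was made, for PROX1 at day 22. It was higher on LN323 than on LN521 by 0.86 ± 0.22 (edgeR adjusted p = 0.0337), and 0.306% of all genes tested were called higher in that comparison. The libraries of PROX1 did not overlap, as for 2.3% of all genes in that direction. The call was lost without the replicate block (0.81, adjusted p = 0.898), with the filterByExpr filter (0.915), in DESeq2 (0.084) and limma (0.904 and 0.897), and with 5 of the 6 libraries left out singly. Without the block, with that filter and in limma, 0 genes of the whole table were called, while DESeq2 called 1.62% of them. At day 22, 0 of the 8 differed between LN523 and LN323 (0.013% of all genes called) or between LN523 and LN521 (0.572%). At an unadjusted p under 0.05 were 0 and 3 of the 8, and 514 and 1762 of all 38609 genes tested. DESeq2 and limma also called 0 of the 8, beside 1.42% and 1.26% of all genes in DESeq2 and 0.0% in limma. At day 32, edgeR called 0 of the 8 in each comparison of coatings. All genes called made up 0.0% between LN523 and LN323, where 747 genes had an unadjusted p under 0.05, 0.0609% for LN523 against LN521 and 0.117% for LN323 against LN521. Of the 8 genes, 3, 1 and 0 had an unadjusted p under 0.05 in those comparisons, beside 747, 2034 and 1762 of all 39377 genes tested.

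At day 32 the libraries of ONECUT1, ONECUT2 and BHLHE22 on LN523 all lay above those on LN323, which is 3 of 8 where 2.23% of all genes did so. The log2 fold changes were 1.56 ± 0.53, 1.33 ± 0.44 and 0.65 ± 0.43, each with an edgeR adjusted p of 1. FOXN4 was higher on LN523 than on LN323 in 3 of 3 lanes, by 1.19 ± 0.28 (edgeR adjusted p = 0.502), and DESeq2, which called 2.09% of all genes, called it (adjusted p = 0.00297). Against LN521 the value of FOXN4 was 1.09 ± 0.28 (edgeR adjusted p = 0.198), which DESeq2 also called (adjusted p = 0.0123, beside 2.09% of all genes).

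LN521 replicate 1 decided the comparison of LN523 with LN521. With all 9 libraries of day 32, ONECUT1, ONECUT2, ONECUT3 and BHLHE22 gave 0.66, 0.75, -0.47 and 0.42, each with an edgeR adjusted p of 0.988. Without LN521 replicate 1 they gave 1.75, 2.05, 1.47 and 1.16, with adjusted p values of 0.000229, 1.74e-19, 0.0296 and 0.000908, and FOXN4 gave 1.36 (2.52e-07). This made 5 of the 8 genes higher on LN523, where 1084 of 38504 genes tested were called higher and 4.95% in either direction. PROX1 (0.11) and LHX1 (0.41) were not called. LN521 replicate 1 was singled out after its values were seen. At day 32 it was the highest LN521 library for ONECUT1, ONECUT2, ONECUT3 and BHLHE22. Leaving it out therefore raises their differences by construction. At day 22 the values of ONECUT1, ONECUT2 and ONECUT3 turned from -2.78, -2.33 and -1.49 with all libraries, none called, to 0.55, 1.48 and 1.42 without that library, and ONECUT2 alone was then called (edgeR adjusted p = 0.0463, beside 1.11% of all genes). For LN323 against LN521 at day 22 the same omission gave ONECUT2 a value of 2.22 (adjusted p = 5.34e-05, beside 1.66% of all genes), and at day 32 edgeR called 0 of the 8 without it, beside 5.57% of all genes, with ONECUT2 at an unadjusted p under 0.05 (0.57, adjusted p = 0.0633).

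**Figure D4:**
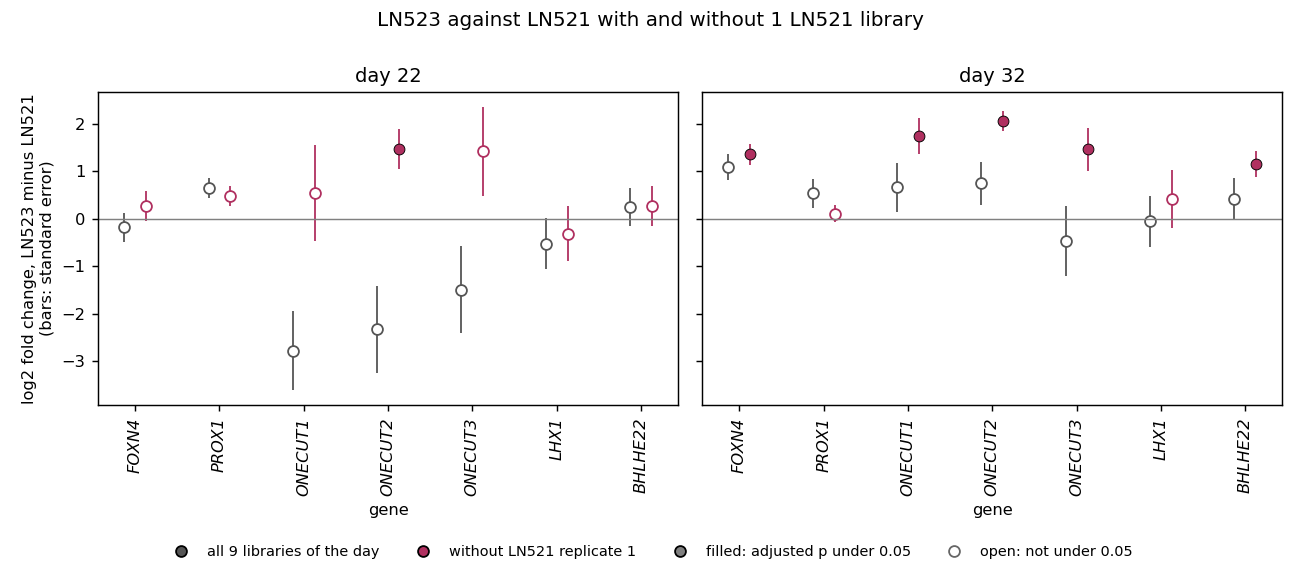
Fitted log2 fold change of LN523 over LN521 with its standard error (y axis) for 7 of the genes (x axis) at day 22 (left) and day 32 (right), with all 9 libraries of the day and without LN521 replicate 1; filled points are past an adjusted p of 0.05 in edgeR. With all libraries no point is filled, and without that library ONECUT2 is filled at day 22 and FOXN4, ONECUT1, ONECUT2, ONECUT3 and BHLHE22 at day 32. That library was singled out after its values were seen.

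A difference between coatings in the change over time was tested directly for each pair of coatings and both intervals. None of the 8 genes was called in these 6 tests, in which 0, 2 and 9 genes of the whole table were called from day 2 to day 22 (0.0%, 0.00446% and 0.0201% of all genes, for LN523 against LN323, LN523 against LN521 and LN323 against LN521) and 0 from day 22 to day 32 (0.0% in each). DESeq2 and limma called none of the 8 either. The members at an unadjusted p under 0.05 numbered 0, 1 and 2 in the first interval and 1, 3 and 0 in the second. Of all 44852 genes, 949, 2085 and 2383 were under it in the first and 901, 2142 and 1540 in the second. The rise of PROX1 from day 2 to day 22 was larger on LN323 than on LN521 by 1.89 ± 0.49 (edgeR adjusted p = 0.18). From day 22 to day 32 the change of ONECUT2 was larger on LN523 than on LN323 by 2.14 and than on LN521 by 2.99, with adjusted p values of 1 and 0.773. With only the groups compared in the fit, edgeR called the difference for ONECUT2 between LN523 and LN323 (2.45, adjusted p = 0.00024, beside 0.11% of all genes) and that for PROX1 between LN323 and LN521 (1.92, adjusted p = 0.00245, beside 1.1% of all genes), so whether these changes differed between coatings depended on the libraries in the fit. Without LN521 replicate 1 at day 22 the difference for ONECUT2 between LN523 and LN521 turned to -0.40 (edgeR adjusted p = 1).

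Ganglion cells also use ONECUT genes, and their markers were high in LN521 replicate 1 and on LN523 at day 32, where the ONECUT genes were high, but also at day 2, where they were not. These 15 genes summed to 257 to 511 CPM in the 9 day 2 libraries, which held 0.208 to 1.47 CPM of ONECUT1 and 3.32 to 6.35 CPM of ONECUT2. They summed to 632, 585 and 360 CPM on LN523 at day 32, to 202, 375 and 265 CPM on LN323 at day 32 and to 59.1 to 148 CPM in the day 22 libraries of those coatings, and 6 of the 15 rose on LN523 from day 22 to day 32, 1 on LN323 and 2 on LN521. All 15 were detected on each coating at both days but for POU4F3 on LN323 at day 22. At day 2, 7, 7 and 8 of the 15 had a mean of at least 1 CPM on LN523, LN323 and LN521. At day 32 that number was 12 on each coating, so fewer genes carried the day 2 sums. The part of ganglion cells in the ONECUT values was not tested. The 18 hindbrain and spinal cord markers summed to 288 and 475 CPM in LN521 replicate 1 at days 22 and 32, but also to 336 and 319 CPM in replicate 2 of LN523 and LN323 at day 22, where ONECUT2 was 7.71 and 13.0 CPM. Their part was not tested either, with LBX1 at 0 counts in LN523 at both days and in LN323 at day 32.

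The 12 photoreceptor markers summed to 74.0 to 177 CPM at day 2 and 17.6 to 75.9 CPM at day 22. At day 32 they summed to 234, 192 and 47.9 CPM on LN523, to 192, 87.7 and 57.4 CPM on LN521 and to 53.5, 62.1 and 23.5 CPM on LN323. Their mean was thus highest on LN523 and lowest on LN323, as were those of FOXN4, ONECUT1, ONECUT2, BHLHE22 and the ganglion cell markers. In each of these the libraries of LN523 and LN521 overlapped. On LN523, LN323 and LN521, 3, 3 and 5 of the 12 had a mean of at least 1 CPM at day 2. At day 32 these numbers were 9, 7 and 8, so fewer genes carried the day 2 sums. PDE6H was at 0 counts on each coating at day 2. From day 22 to day 32 edgeR called 4 of the 12 higher on LN523, 2 on LN521 and 0 on LN323, where 3 had an unadjusted p under 0.05, as had 1280 of all genes. At day 32 the 13 lens markers reached 9.96 to 52.8 CPM on LN521, 50.5 to 155 CPM on LN523 and 56.9 to 350 CPM on LN323, while PROX1 overlapped between these groups. At days 22 and 32 the 13 pancreas and liver markers in the table held 4.16 to 16.3 CPM, with PNLIP at 0 in all these groups, and 8 kidney and intermediate mesoderm markers 4.88 to 41.3 CPM. The 7 endothelial markers held 98.5 to 153 CPM, 6 bipolar cell markers 28.5 to 70.9 CPM, with CABP5 at 0 counts on each coating at day 22, and 12 telencephalon markers 8.89 to 94.0 CPM. Mesendoderm (12 genes, 12.7 to 115 CPM), hypothalamus (10 genes, 161 to 723 CPM), pigment epithelium (9 genes, 771 to 2603 CPM) and surface epithelium markers (12 genes, 745 to 3374 CPM) completed the lists. Their part in the values of the 8 genes was not tested.

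Among 13 further genes of horizontal cells, 3 rose and 5 fell on LN523 from day 2 to day 22, 3 rose and 6 fell on LN323, and 4 rose and 6 fell on LN521, with medians of -1.56, -1.66 and -1.38. Of all genes, 10.2%, 10.9% and 8.09% fell. TFAP2A, an AP-2 factor of horizontal and amacrine cells, rose by 4.54, 6.66 and 4.73 in that order of coatings (edgeR adjusted p = 2.28e-08, 2.07e-11 and 8.88e-09). CALB1, the calcium-binding protein calbindin of mature horizontal cells, fell by 4.34, 3.78 and 4.15 on the log2 scale from means of 29.8, 26.6 and 21.8 CPM in the stem cells (adjusted p = 9.55e-08, 9.11e-07 and 2.74e-07). RET, a receptor tyrosine kinase, fell by 4.18, 3.31 and 3.60 (adjusted p = 2.31e-06, 4.75e-05 and 2.18e-05). TFAP2B reached means of 25.4, 23.8 and 49.2 CPM at day 22 and was lower on LN523 and LN323 than on LN521, by -1.50 ± 0.31 and -1.28 ± 0.30 (edgeR adjusted p = 0.00232 and 0.0107). With the filterByExpr filter and in limma, 0 genes of the whole table were called in either of these comparisons. From day 22 to day 32 on LN523, 3 of the 13 rose, namely SEPTIN4 (3.39, edgeR adjusted p = 0.00011), CALB2 (3.77, 0.005) and TNR (6.12, 0.0274). With the filterByExpr filter 0 of 25682 genes were called in that comparison, so these calls were lost, and limma called 28 and 3 genes in all. On LN323 and LN521 edgeR called none of the 13. There 3 and 2 had an unadjusted p under 0.05, as had 1280 and 2763 of all genes. The medians in that interval were 0.98, 0.50 and 0.68.

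Among 21 further genes of amacrine cells, 10, 11 and 11 rose and 2 fell on each coating from day 2 to day 22, the latter near the shares of all genes that fell, with medians of 1.82, 2.20 and 2.96. MEIS2, a homeobox factor of GABAergic amacrine cells and of many other neurons, rose by 7.86, 9.73 and 9.22 (edgeR adjusted p = 5.11e-23, 4.9e-25 and 1.53e-24), and SOX2, which pluripotent cells also express, fell by 2.27, 1.94 and 2.02 (adjusted p = 8.44e-09, 2.28e-07 and 1.16e-07). Later, by day 32, 3 rose on LN523, namely CALB2, EBF1 (3.25, edgeR adjusted p = 0.0149) and TH (2.64, adjusted p = 0.0433), the last encoding the enzyme that makes dopamine precursors. These calls were lost with the filterByExpr filter, where 0 of 25682 genes were called. GAD1, a glutamate decarboxylase, averaged 17.1, 16.6 and 9.97 CPM at day 32 on LN523, LN323 and LN521, while GAD2 stayed at or under 4.15 CPM, SLC32A1, the vesicular GABA transporter, at or under 0.99 CPM and PRDM13, an amacrine factor, at or under 1.47 CPM in every group. These 4 genes were named after their values were seen and do not stand for the list. Of its 21 genes, 15 had a mean of at least 1 CPM at day 32 on each coating.

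Among 21 regulators that act before or after FOXN4 and PTF1A, 18, 19 and 17 rose from day 2 to day 22 on LN523, LN323 and LN521 and 1 fell, RBPJ, the partner of Notch and PTF1A (-1.31, -1.07 and -1.08, edgeR adjusted p = 4.29e-06, 0.00011 and 0.000117). SIX6, an eye-field factor, rose by 9.34 on LN523 and 9.50 on LN521 (edgeR adjusted p = 1.1e-23 and 5.59e-24). From day 22 to day 32, 7 rose on LN523, 5 on LN521 and 0 on LN323 by edgeR, with 6 on LN323 at an unadjusted p under 0.05, as were 1280 of all genes. ATOH7, the factor that makes cells competent for the ganglion fate, rose by 4.96 on LN523 and 5.88 on LN521 (edgeR adjusted p = 1.2e-05 and 9.28e-07). NEUROD1 rose by 5.13 and 3.78 and NEUROD4, an amacrine and horizontal cofactor of the NeuroD family, by 4.58 and 3.49. With the filterByExpr filter 0 genes of the whole table were called in this interval on LN523 and 5 on LN521. The calls on LN523 were thus lost with that filter. At day 22, ATOH7 was higher on LN523 and LN323 than on LN521, by 1.87 and 2.96 (edgeR adjusted p = 0.0044 and 4.53e-07), and RORB, a nuclear receptor that acts with FOXN4 before PTF1A, was higher on LN323 than on LN521 by 1.39 (adjusted p = 0.000587). These calls depended on the processing. With the filterByExpr filter and in limma, 0 genes of the whole table were called in either comparison. Without the replicate block, 1 gene was called for LN523 against LN521 and 0 for LN323 against LN521.

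Likeness was measured as Pearson's r of log2(CPM + 1) over the 18409 genes with a mean of at least 1 CPM in some group. Over all 27 libraries, which share the split between day 2 and later days, FOXN4 was most like MAP2 (r = 0.968), PROX1 like CNTN5 (0.982), BHLHE22 like INSM1 (0.960), ONECUT1 like MYT1 (0.948), ONECUT2 like CNTN2 (0.936), ONECUT3 like SVOP (0.956) and LHX1 like LHX5 (0.735). Next came DENND6B (0.962) and RSPH9 (0.961) for FOXN4, RIN2 (0.982) and LIX1 (0.981) for PROX1, and the Notch ligand gene DLL3 (0.936) and SVOP (0.931) for ONECUT1. For ONECUT2 they were CELF3 (0.925) and NSG2 (0.923), for ONECUT3 ASIC4 (0.944) and NSG2 (0.942), for BHLHE22 ENSG00000248540 (0.960) and DLL4 (0.955), and for LHX1 its divergent transcript LHX1-DT (0.735) and TENM3-AS1 (0.664). With a pseudocount of 0.1 the first gene changed for ONECUT1 (ELAVL3, 0.907), ONECUT3 (CELF3, 0.935), PROX1 (FANK1, 0.981), LHX1 (LHX1-DT, 0.669) and BHLHE22 (ENSG00000248540, 0.974).

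Within days 22 and 32, after each day's mean was subtracted (18 libraries), the 3 ONECUT genes varied most alike of the members, with r = 0.874 for ONECUT1 and ONECUT2, 0.871 for ONECUT1 and ONECUT3 and 0.880 for ONECUT2 and ONECUT3. Without LN521 replicate 1 at both days (16 libraries) these were 0.710, 0.620 and 0.856. PROX1 had r of -0.548, -0.423 and -0.580 with ONECUT1, ONECUT2 and ONECUT3, and -0.286, -0.118 and -0.269 without those libraries. FOXN4 and BHLHE22 had r = 0.544, and 0.657 without those libraries. In the same 18 libraries ONECUT1 was most like NHLH1 (0.981), STMN4 (0.968) and CPLX2 (0.967), ONECUT2 like SCG3 (0.946), RHBDL3 (0.944) and NCKAP5 (0.942), and ONECUT3 like SVOP (0.956), NSG2 (0.951) and ASIC4 (0.950), all genes whose r stayed at 0.795 to 0.959 in the 16 libraries. FOXN4 was most like DNAAF3 (0.902), an axonemal dynein assembly factor, PROX1 like DENND11 (0.929), BHLHE22 like IGSF11 (0.902) and LHX1 like GADD45G (0.825), which fell to 0.626 without LN521 replicate 1. These values describe shared libraries and lanes and carry no test.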

How the data were processed

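The authors sequenced total RNA libraries (TruSeq stranded, Ribozero Gold) as 150 bp pairs, aligned reads to GRCh38 with Ensembl 79 by STAR 2.5.2b, counted genes with featureCounts 1.5.1, removed ribosomal RNA and mitochondrial genes and deposited rounded counts. The authors also deposited TPM, made from those counts with 1 fixed length per gene. Of the non-zero counts 68.8% were even, so a read pair may count as 2 and counting intervals may be too narrow. Genes were named by GENCODE 44 (43052 of 44852 matched).

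Counts were fitted in edgeR 4.0.16 (R 4.3.3) after TMM scaling, keeping genes whose counts summed to more than 1, with lane as a replicate block. The quasi-likelihood p was adjusted by Benjamini-Hochberg and called under 0.05. Changes over time and their differences were fitted on 27 libraries, and coatings on the 9 libraries of a day. The biological coefficient of variation was 45.1% over 27 libraries, 39.5% at day 22 and 44.4% at day 32. The standard error is the log2 fold change divided by the root of its F statistic. Fits were also run on simulated counts, which had a smaller spread than these data and no lane effect, so that run does not bear on the calls. Alternatives were no block, RLE, filterByExpr, DESeq2 1.42.0, limma 3.58.1 on log2(TPM + 1) and log2(TPM + 0.1), other libraries in the fit and each library left out. Transcripts were compared with BLAST 2.17.0. The genes and lists were chosen with earlier results of these data known. All 8 genes, the 3 genes most like each, and from each list at most 3 called genes per direction and comparison with the largest change and a mean of at least 1 CPM could be named. GAD1, GAD2, SLC32A1 and PRDM13 were named outside that rule. A gene of one list is not reported here by name. The replicate numbers did not pair all libraries, as LN521 lane 1 had correlations of -0.309 to -0.167 with the other coatings at days 22 and 32 (LN523 with LN323, 0.484 to 0.815).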

Additional observations from a re-analysis of the deposited data

How the results depend on the processing

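The 3 rises common to all coatings from day 2 to day 22 (FOXN4, PROX1, BHLHE22) kept their direction and call under every alternative and with each library left out. The later calls did not. For the change from day 22 to day 32 on LN523, 3 of the 8 genes were called. With the filterByExpr filter 0 were, as were 0 of all 25682 genes tested, so the calls of listed genes were lost there too. DESeq2 called 1 (BHLHE22, beside 0.412% of all genes) and limma 0 with either pseudocount (0.0624% and 0.00669%). With only the groups compared in the fit 5 were called (1.34%), and with 1 library left out 0 to 3 (0.119% to 0.645%). On LN521, 1 was called, but 0 without the block (0.172% of all genes), with RLE (0.243%), with filterByExpr (0.0195%) and in limma (0.0468% and 0.0379%). With only the groups compared 2 were called (1.01% of all genes), and with 1 library left out 0 to 2 (0.132% to 0.448%). On LN323, 2 were called with only the groups compared (0.962% of all genes). The causes were not tested.

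Between coatings at day 22, the 1 call of LN323 against LN521 became 0 without the block, with filterByExpr and in limma, where 0.0% of all genes were called. It also became 0 in DESeq2 (1.62% of all genes) and with all 27 libraries (0.0892%), and 0 to 4 with 1 library left out (0.034% to 1.66%). LN523 against LN323 and against LN521 gave 0 to 2 and 0 to 3 calls with 1 library left out, against 0. Of all genes, 0.0% to 0.588% and 0.0444% to 1.34% were then called. At day 32, DESeq2 called 1 gene (FOXN4) for LN523 against LN323 and against LN521 (2.09% of all genes in each). The latter comparison gave 0 to 5 calls with 1 library left out (0.00257% to 4.95% of all genes). With only the groups compared, 1 gene (PROX1) differed in its change to day 22 between LN323 and LN521 (1.1% of all genes), with 0 to 2 over the leave-outs (0.0% to 0.374%), and 1 (ONECUT2) in its change to day 32 between LN523 and LN323 (0.11% of all genes).

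Values not called that changed sign with 1 library left out were ONECUT1 and ONECUT2 on LN521 from day 22 to day 32 (-0.98 to 3.57 and -0.97 to 4.24), PROX1 in that interval on LN523, LN323 and LN521 (-0.045 to 0.40, -0.54 to 0.051 and -0.035 to 0.44), the difference in that change of ONECUT2 between LN523 and LN521 (-0.40 to 4.67), ONECUT1, ONECUT2 and ONECUT3 for LN523 against LN521 at day 22 (-4.29 to 0.55, -5.03 to 1.48 and -3.38 to 1.42), and ONECUT3 and BHLHE22 for that pair at day 32 (-1.52 to 1.47 and -0.25 to 1.16). The replicate block mattered for PROX1 at day 22, ONECUT1 on LN523 and BHLHE22 on LN521, as given above. Same-numbered libraries correlated in LN523 and LN323 at days 22 and 32 but not in LN521 lane 1, nor at day 2 (0.0955, -0.686 and -0.602 between LN523 and LN323), so the numbers are not shown to pair samples.

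Depth limited PTF1A, which never passed 18 counts in a library.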

Other observations

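Levels of the 8 genes in stem cells at day 2 were compared between coatings as values only. FOXN4 lay at 1.23 to 1.56 CPM on LN521, above all LN523 libraries (0.573 to 1.08 CPM) and LN323 libraries (0.241 to 0.957 CPM). ONECUT3 likewise lay at 0.167 to 0.325 CPM on LN521, above LN523 (0.062 to 0.156 CPM) and LN323 (0.055 to 0.144 CPM). PROX1 at 1.95 to 2.14 CPM on LN521 lay above LN323 (0.486 to 1.30 CPM) but within the range of LN523 (0.924 to 2.51 CPM). ONECUT1 at 1.11 to 1.47 CPM on LN521 lay above LN523 (0.208 to 0.849 CPM) but overlapped LN323, and ONECUT2 was lower on LN523 (3.32 to 4.00 CPM) than on LN323 (4.62 to 5.05 CPM) without overlap. BHLHE22, at 0.046 to 0.105 CPM on LN521, was at 0 in all LN323 libraries and overlapped LN523, and PTF1A and LHX1 overlapped between all coatings. Over all genes, libraries on LN521 lay above those on LN523 without overlap for 5.61% and above those on LN323 for 5.85%, and libraries on LN323 lay above those on LN523 for 2.79%. ONECUT2 was the member with the highest CPM at day 2 in each library, at 3.32 to 6.35 CPM, whereas PTF1A and BHLHE22 were at or near 0. CPM does not account for gene length. In mean TPM, LHX1 (0.997) was above ONECUT2 (0.767) on LN523. On LN521, LHX1 (1.69), FOXN4 (1.60) and ONECUT1 (1.40) were above ONECUT2 (1.37), while on LN323 ONECUT2 stayed the highest (0.961).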
